A study of Homo sapiens with 21 samples.

Results

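The genes described here are those of the MHC class II pathway and its master regulator, in a human acute myeloid leukemia cell line, OCI-AML5, exposed to the hematopoietic stem cell agonist UM171. The 10 members were taken by gene symbol from 58174 gene identifiers: CIITA, CD74, HLA-DRA, HLA-DRB1, HLA-DPA1, HLA-DPB1, HLA-DQA1, HLA-DQB1, HLA-DMA and HLA-DMB. Poly(A) RNA was sequenced from 21 libraries in 7 groups of 3. Cells were kept in DMSO, the vehicle (labelled 72 h), or exposed to UM171 for 6, 24, 48 or 72 h, and cells carrying sgEPCR, a CRISPR guide against PROCR (the gene of the protein C receptor EPCR), were kept in DMSO or UM171 for 24 h. The dose in the labels is 500 nM. The study's own legends give a lower dose, and its own tables list the vehicle libraries of the time course under another time. The labels describe the sgEPCR libraries as a clone that is EPCR null and also as an EPCR knockdown, and the study speaks of sgEPCR-transduced cells compared with sgAAVS1 cells, which carry a guide to a neutral site. The study also speaks of several independent sgEPCR clones, to which the labels do not assign the libraries. The labels name no guide for the DMSO and UM171 libraries without sgEPCR, which are called control cells below. Nothing in the labels says that the 3 libraries of a group came from separate cultures, so p-values measure the spread between these libraries, which may be technical.

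MHC class II molecules are pairs of an alpha and a beta chain that carry peptides to the cell surface for recognition by CD4+ T cells. In the endoplasmic reticulum the pair is held by the invariant chain CD74, whose last fragment is later released from the groove with the help of HLA-DM, itself a pair of HLA-DMA and HLA-DMB. CIITA is a transcriptional coactivator that does not bind DNA itself and is recruited by the factors RFX, CREB and NF-Y, which sit on the X and Y boxes in front of these genes. Myeloid progenitors and monocytes, the lineage of OCI-AML5, are known to carry class II molecules.

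CIITA is on chromosome 16 (10866222 to 10943021, plus strand), CD74 on chromosome 5 (150401637 to 150412969, minus strand) and the remaining 8 genes in the class II region of chromosome 6, between 32439878 (the start of HLA-DRA) and 33089696 (the end of HLA-DPB1), all in GRCh38 by GENCODE annotation. RefSeq promoters (GRCh38.p14) were matched for 8 of the 10 genes, all but CIITA and HLA-DRA. The 250 bases upstream of each transcript start were searched on both strands for CCAAT, the core of the Y box, and for AGNNACNGA, a loose core of the X box, because these elements define the gene family. CCAAT or its complement was found upstream of 7 of the 8 genes and in 32.0% of all 34943 promoters. AGNNACNGA was found upstream of 6 of the 8 and in 12.4% of all promoters, and both motifs upstream of 5 of the 8 and in 3.97% of all. The stretches that follow show the arrangement in some of these genes, which differs between them, with the letters of both motifs in capitals. Exonic bases of the annotation were left out except in the 30-base stretches.
HLA-DRB1, chr6:32589849-32589998, minus strand, bases -150 to -1: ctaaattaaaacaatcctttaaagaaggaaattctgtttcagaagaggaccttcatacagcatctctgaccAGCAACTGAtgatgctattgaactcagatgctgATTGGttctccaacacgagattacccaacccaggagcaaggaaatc
HLA-DMA, chr6:32953123-32953247, minus strand, bases -150 to -26: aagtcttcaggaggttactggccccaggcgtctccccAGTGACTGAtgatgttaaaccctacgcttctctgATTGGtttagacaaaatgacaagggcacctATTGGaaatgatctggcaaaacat
HLA-DMB, chr6:32941029-32941178, minus strand, bases -150 to -1: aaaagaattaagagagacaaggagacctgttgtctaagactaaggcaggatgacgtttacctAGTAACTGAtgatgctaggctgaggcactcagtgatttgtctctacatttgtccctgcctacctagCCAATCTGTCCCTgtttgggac
HLA-DPB1, chr6:33075840-33075989, plus strand, bases -150 to -1: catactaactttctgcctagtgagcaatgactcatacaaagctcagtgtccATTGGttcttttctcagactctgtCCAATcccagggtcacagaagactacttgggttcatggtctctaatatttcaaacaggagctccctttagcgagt
HLA-DPA1, chr6:33073730-33073759, minus strand, bases -110 to -81: cctctttacccAGCAACAGAgaatgtcagc
CD74, chr5:150412947-150412976, minus strand, bases -66 to -37: gggccctgggcagCCAATgggatcgtgctg

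In HLA-DRB1 the X box core ended 24 bases before an inverted CCAAT, and in HLA-DMA 25 bases before one. The same order with 24 or 25 bases between the motifs was present upstream of 4 of the 8 genes (HLA-DRB1, HLA-DQA1, HLA-DQB1 and HLA-DMA) and of 11 of the 34943 promoters (0.0315%). The distance was read from these genes first, so the share is a description. In HLA-DMB the last 2 motif matches overlap by 1 base. HLA-DPA1 has 2 RefSeq starts, and the stretch shown belongs to the downstream one.

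**Figure D1:**
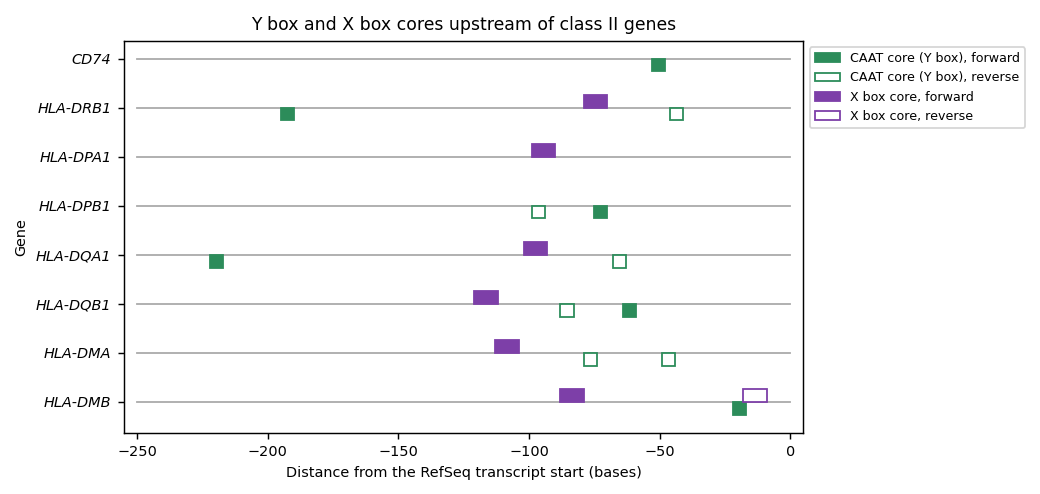
Position of Y box cores (green) and X box cores (purple) in the 250 bases upstream of the RefSeq start of 8 class II genes; the x axis is the distance from the start in bases, filled boxes are on the strand of the gene and open boxes on the opposite strand. HLA-DRB1, HLA-DQA1, HLA-DQB1 and HLA-DMA share a forward X box core followed after 24 or 25 bases by an inverted Y box core.

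The libraries held 24.3 to 51.5 M counts (median 33.9 M). PROCR, the gene targeted in sgEPCR cells, had 3.37, 4.30 and 3.38 TPM (transcripts per M, a level corrected for transcript length) in control DMSO and 48.5 TPM in each UM171 24 h library. In sgEPCR cells it had 2.30, 4.53 and 3.93 TPM in DMSO and 8.94, 4.23 and 8.41 in UM171, so the transcript was still detected while its response to UM171 was smaller (difference in log2 response -3.06, SE 0.17). Of the sgEPCR libraries, replicate 1 in DMSO had 35.9% of its counts on mitochondrial genes and replicate 2 in UM171 had 32.2%, where 19 libraries ranged from 7.73 to 13.5%. These 2 libraries had the lowest TPM of their group for 8 of the 8 members tested, so sgEPCR results are given with and without them. Without them the PROCR difference was -2.92 (SE 0.14). The chi-square per degree of freedom between replicates was 514 to 717 for pairs that contain 1 of them. It was lowest between sgEPCR UM171 replicates 1 and 3 (1.65), above the value of 1 expected from sampling alone, and no library was counted as a duplicate. UM171 48 h replicate 3 also differed from its group (46.2 and 49.9).

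Markers of the labelled lineage were present: the myeloid genes CD33, LYZ and CEBPA reached at least 34.6, 357 and 6.63 TPM in each of the 21 libraries. The remaining myeloid genes listed were lower, with medians of 30.4 (CSF1R), 20.2 (ITGAM), 12.6 (CSF2RA), 3.38 (MPO) and 1.73 TPM (CD34). Of markers of other cells that carry or read class II, MS4A1 (B cells) and CD5 (T cells) were at 0 in all 21 libraries, and CD3E, CD3G, CD1C and XCR1 were at most at 0.11, 0.07, 0.03 and 0.04 TPM. The summed level of the 5 B cell markers was 9.48 to 10.5 TPM in DMSO and 37.5 to 43.4 TPM at 48 h, nearly all of it CD79A. The summed level of the 5 T cell markers was 0.14 to 0.80 TPM in DMSO and 13.7 to 19.3 TPM at 48 h, nearly all of it CD3D. The 6 dendritic cell markers summed to 0.40 to 0.59 TPM in DMSO and 2.60 to 3.19 TPM at 48 h, and the 8 myeloid markers to 975 to 1089 TPM in DMSO and 1927 to 2191 TPM at 72 h. The part of these genes in the results below was not tested. In bulk RNA, fewer cells that express a gene and less RNA per cell cannot be told apart.

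The vehicle libraries of the time course are all labelled 72 h. For each gene below, UM171 and time in culture therefore cannot be told apart at 6, 24 and 48 h. CIITA, the master regulator, fell with UM171 and was lowest at 24 and 48 h. It was at 18.8, 20.5 and 24.2 TPM in DMSO, 17.5, 21.7 and 20.01 at 6 h, 6.92, 8.21 and 5.99 at 24 h, 7.12, 8.55 and 8.03 at 48 h, and 12.6, 13.9 and 14.6 at 72 h. The libraries of 24, 48 and 72 h all lay below those of DMSO, the 24 and 48 h libraries overlapped, and the 6 h libraries overlapped with DMSO. By edgeR's quasi-likelihood test with adjustment over all 16575 genes tested, CIITA fell 3.01-fold at 24 h (log2 -1.59, SE 0.06, adjusted p = 2.7e-13) and 2.85-fold at 48 h (log2 -1.51, SE 0.06, adjusted p = 3.6e-13). At 72 h its log2 fold change was -0.77 (SE 0.06, adjusted p = 9.2e-10), and between 48 and 72 h it rose by 0.74 (SE 0.06, adjusted p = 1.9e-08). At 6 h the log2 fold change was -0.37 (SE 0.05, adjusted p = 2e-05), a call that was lost on the log2(TPM + 1) scale, where it was -0.09.

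HLA-DRA, the alpha chain of HLA-DR, fell with UM171 and was lowest at 48 h. Its levels were 236, 235 and 240 TPM in DMSO, 233, 242 and 243 at 6 h, 148, 161 and 161 at 24 h, 105, 104 and 95.6 at 48 h, and 135, 129 and 135 at 72 h. The groups of 24, 48 and 72 h did not overlap with DMSO or with each other. The log2 fold change was -0.64 at 24 h (SE 0.05, adjusted p = 1.4e-09), -1.20 at 48 h (SE 0.05, adjusted p = 3.7e-13) and -0.90 at 72 h (SE 0.05, adjusted p = 8e-12). At 6 h it was -0.15 (SE 0.04, adjusted p = 0.0073), but 0.03 with total count scaling and 0.01 on the log2(TPM + 1) scale, so the direction at 6 h rests on the scaling.

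HLA-DRB1, the beta chain that pairs with HLA-DRA, moved the other way. It was at 11.2, 13.5 and 11.9 TPM in DMSO, 15.03, 16.6 and 15.6 at 6 h, 19.9, 20.03 and 20.7 at 24 h, 18.8, 20.9 and 13.1 at 48 h, and 20.3, 22.6 and 24.7 at 72 h. Levels at 6, 24 and 72 h were all above DMSO, and at 48 h replicate 3 lay within the DMSO range. HLA-DRB1 rose 1.62-fold at 24 h (log2 0.70, SE 0.09, adjusted p = 2.3e-06) and 1.77-fold at 72 h (log2 0.82, SE 0.09, adjusted p = 2.2e-07), with a log2 fold change of 0.55 at 48 h (SE 0.09, adjusted p = 3.3e-05). At 6 h it did not pass (log2 0.21, adjusted p = 0.059). Reads shared with its close copy HLA-DRB5 had to be divided by RSEM, whose posterior SD reached 3.74% of the HLA-DRB1 count and 14.6% of the HLA-DRB5 count. HLA-DRB5 itself was at 1.47 to 2.78 TPM in DMSO and rose at 72 h (log2 1.03, SE 0.17, adjusted p = 2.6e-05), and with the 2 genes summed as 1 feature the calls of HLA-DRB1 stayed on the same side of the threshold.

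HLA-DPA1, the alpha chain of HLA-DP, rose at all 4 times. It had 52.0, 62.5 and 60.2 TPM in DMSO, 86.8, 87.2 and 81.4 at 6 h, 90.9, 93.3 and 91.5 at 24 h, 79.5, 90.2 and 71.0 at 48 h, and 101, 97.4 and 99.1 at 72 h. No UM171 library overlapped with DMSO. The log2 fold changes were 0.37 at 6 h (SE 0.04, adjusted p = 1.4e-06), 0.59 at 24 h (SE 0.04, adjusted p = 2.1e-09), 0.50 at 48 h (SE 0.04, adjusted p = 1.8e-08) and 0.65 at 72 h (SE 0.04, adjusted p = 3.3e-10). Its partner HLA-DPB1, which lies head to head with it, changed less: 29.5, 30.8 and 31.2 TPM in DMSO, 34.6, 40.3 and 38.5 at 6 h, 32.3, 34.7 and 33.2 at 24 h, 30.5, 30.02 and 24.3 at 48 h, and 40.5, 46.8 and 47.8 at 72 h. The 6, 24 and 72 h libraries lay above DMSO and those of 48 h overlapped with it. HLA-DPB1 rose at 72 h (log2 0.53, SE 0.05, adjusted p = 3.5e-08) and did not pass at 48 h (log2 -0.03, adjusted p = 0.61). Its calls at 6 h (log2 0.19, adjusted p = 0.0043) and 24 h (log2 0.13, adjusted p = 0.035) were each lost when a single library was left out, at 24 h for example DMSO replicate 1 (log2 0.12, adjusted p = 0.082) and at 6 h UM171 6 h replicate 2 (log2 0.14, adjusted p = 0.05). The 2 genes overlap on opposite strands, and as the sources used here do not state whether counting used the strand, reads in the overlap may not be told apart.

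HLA-DQA1 and HLA-DQB1, the chains of HLA-DQ, were near the limit of detection. HLA-DQA1 had at most 0.40 TPM and 7.32 counts in a library and was at 0 in 3 of 21 libraries, and HLA-DQB1 had at most 0.42 TPM and 7 counts and was at 0 in 8. Both failed the filter on low counts in both fits, so 8 of the 10 members were tested, and 3 counts were taken as the smallest signal. With this filter no change of HLA-DQ was tested.

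CD74, the invariant chain, was the most abundant member. It was at 521, 512 and 513 TPM in DMSO, 568, 556 and 567 at 6 h, 441, 456 and 481 at 24 h, 422, 391 and 451 at 48 h, and 574, 557 and 511 at 72 h. The 6 h libraries lay above DMSO in TPM, and the 24 and 48 h libraries lay below it and overlapped with each other. CD74 fell at 48 h (log2 -0.26, SE 0.08, adjusted p = 0.0074), a call lost without UM171 48 h replicate 2 (log2 -0.17, adjusted p = 0.052). The call at 24 h (log2 -0.19, SE 0.08, adjusted p = 0.044) was lost in 9 of 15 fits with 1 library left out, for example without DMSO replicate 1 (log2 -0.16, adjusted p = 0.12). CD74 did not pass at 6 h (log2 -0.03, adjusted p = 0.74) or 72 h (log2 0.03, adjusted p = 0.75). At 6 h its direction turned to 0.15 with total count scaling.

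HLA-DMB, the beta chain of the peptide editor HLA-DM, showed an early rise and was highest at 6 h. It had 4.47, 3.82 and 3.91 TPM in DMSO, 9.73, 10.5 and 9.93 at 6 h, 3.79, 4.28 and 5.09 at 24 h, 4.93, 4.58 and 6.20 at 48 h, and 6.61, 5.50 and 5.33 at 72 h. The 6 h libraries stood above all others, and the 24 h libraries overlapped with DMSO. In TPM the 48 and 72 h libraries lay above those of DMSO. HLA-DMB rose 2.13-fold at 6 h (log2 1.09, SE 0.10, adjusted p = 1e-07) and fell 2.35-fold from 6 to 24 h (log2 -1.23, SE 0.10, adjusted p = 1.4e-08). At 24, 48 and 72 h it did not pass on counts (log2 -0.14, -0.04 and 0.24), while limma on log2(TPM + 1) gave 0.08, 0.29 and 0.42, the last 2 with an adjusted p of 0.042 and 0.0053. TPM divides by a length that is estimated in each library. At 72 h HLA-DMB passed in 3 of 15 fits with 1 library left out and in 4 of 10 other alternatives. HLA-DMA, the alpha chain, rose gradually instead, from 12.7, 12.5 and 15.1 TPM in DMSO to 17.3, 16.9 and 16.7 at 6 h, 14.98, 16.7 and 17.3 at 24 h, 18.4, 19.7 and 16.6 at 48 h and 22.4, 20.9 and 22.2 at 72 h. The 6, 48 and 72 h libraries were all above DMSO. Its log2 fold change was 0.39 at 48 h (SE 0.07, adjusted p = 0.00018) and 0.62 at 72 h (SE 0.07, adjusted p = 6.4e-07). The calls at 6 h (log2 0.21, adjusted p = 0.024) and 24 h (log2 0.18, adjusted p = 0.036) were each lost in 4 of 15 fits with 1 library left out, for example without DMSO replicate 2 (log2 0.16, adjusted p = 0.1, and log2 0.14, adjusted p = 0.14).

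**Figure D2:**
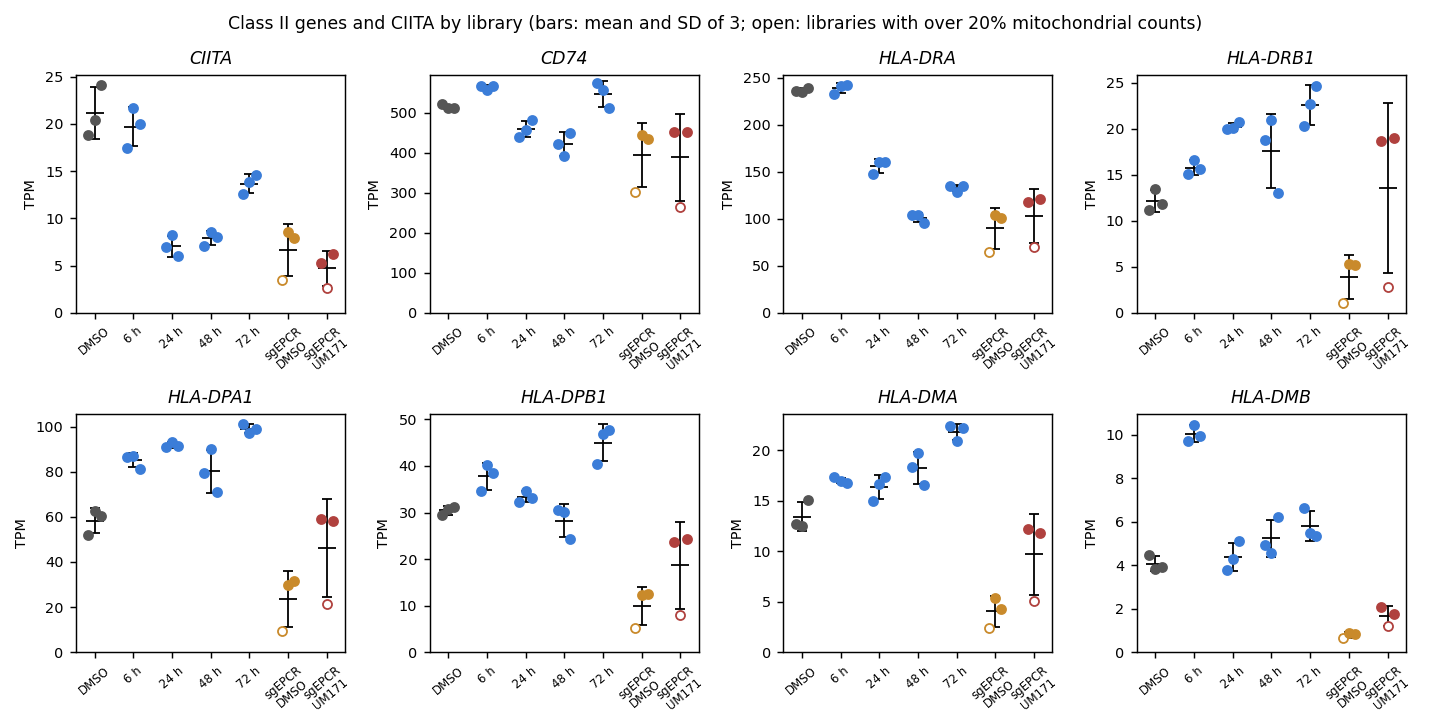
TPM of the 8 tested members in each of the 21 libraries; each dot is a library, black bars are the mean and SD of 3, and open dots are the 2 sgEPCR libraries with over 20% mitochondrial counts. Among control cells CIITA is lowest at 24 and 48 h and HLA-DRA at 48 h, HLA-DMB peaks at 6 h (9.73 to 10.5 TPM), and the open dots are the lowest of their groups.

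Counted over the 8 members tested, 4 rose and 2 fell at 6 h, 4 rose and 3 fell at 24 h, 3 rose and 3 fell at 48 h, and 4 rose and 2 fell at 72 h (adjusted p under 0.05). These counts stand beside a broad response: of all 16575 genes, 31.8% rose and 30.3% fell at 6 h, 34.9% and 34.8% at 24 h, 37.1% and 35% at 48 h, and 38.8% and 36.8% at 72 h. The share of members called in either direction is therefore near that of all genes. The median log2 fold change of the members was 0.20, -0.01, -0.04 and 0.38 at 6, 24, 48 and 72 h, against 0.02, -0.01, -0.0049 and 0.02 over all genes. By the stricter limits of the study (adjusted p under 0.0001 and over 2-fold) HLA-DMB passed at 6 h, CIITA at 24 h, and CIITA and HLA-DRA at 48 h, and no member passed at 72 h. Of all genes, 7.03%, 13.7%, 16.4% and 20.8% passed these limits at the 4 times. Total count scaling shifted the median of all genes by 0.18 at 6 h, so small changes at that time depend on the scaling.

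Between successive times, 2 members rose (HLA-DRB1 and HLA-DPA1) and 3 fell (CIITA, HLA-DRA and HLA-DMB) from 6 to 24 h, where 32.5% of all genes rose and 34.6% fell. From 24 to 48 h, 1 member rose (HLA-DMA) and 2 fell (HLA-DRA and HLA-DPB1), beside 23.6% and 22% of all genes. The HLA-DMA call (log2 0.20, adjusted p = 0.033) was lost in 7 of 15 fits with 1 library left out, for example without UM171 24 h replicate 1 (log2 0.16, adjusted p = 0.14), and that of HLA-DPB1 (log2 -0.16, adjusted p = 0.018) without UM171 24 h replicate 2 (log2 -0.12, adjusted p = 0.11). From 48 to 72 h, 8 of the 8 members rose, by 0.16 (HLA-DPA1) to 0.74 (CIITA) on the log2 scale, while 28% of all genes rose and 29.2% fell. These members share the 48 h libraries, of which replicate 3 stood apart. With 1 library left out 6 to 8 rose, 6 without UM171 48 h replicate 1, 72 h replicate 1 or 72 h replicate 3, and without 48 h replicate 3 HLA-DRB1 (log2 0.17, adjusted p = 0.062) no longer passed. The HLA-DMB call (log2 0.28, adjusted p = 0.034) was lost in 4 of 15 such fits. By DESeq2, by limma or without a filter 7 rose, and 3 in a fit of all 21 libraries.

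**Figure D3:**
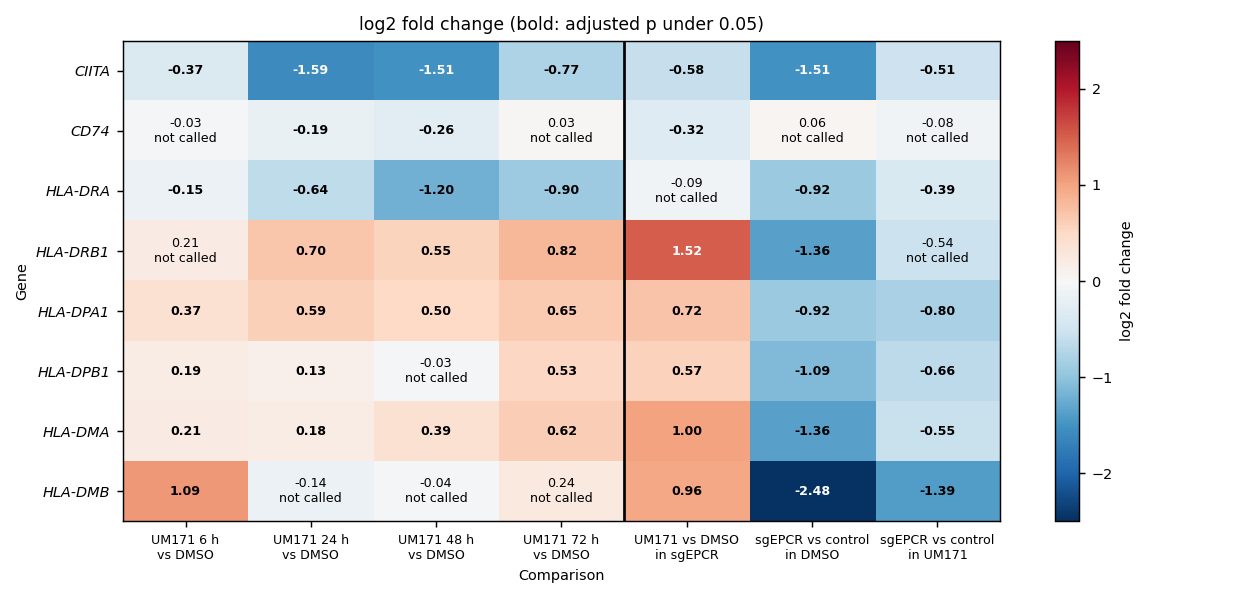
log2 fold change of each tested member (rows) in 7 comparisons (columns), from edgeR; red is higher, blue is lower, and bold values have an adjusted p under 0.05. CIITA and HLA-DRA are negative at 24, 48 and 72 h, whereas HLA-DRB1 and HLA-DPA1 are positive, and the 2 columns on the right show lower values in sgEPCR cells for each member but CD74 in DMSO.

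Next, sgEPCR cells were compared with control cells, in a fit of 12 libraries and 15901 genes. In DMSO the class II genes were lower in sgEPCR cells by the test on counts, CD74 excepted. CIITA was at 3.48, 8.59 and 7.91 TPM, HLA-DRA at 64.3, 104 and 101, HLA-DRB1 at 1.10, 5.28 and 5.18, and HLA-DMB at 0.63, 0.88 and 0.82. Each of these libraries lay below each control DMSO library, and so did those of HLA-DPA1 (9.34 to 31.7 TPM), HLA-DPB1 (5.12 to 12.4) and HLA-DMA (2.42 to 5.41). In TPM CD74 also lay below control DMSO (mean 394 against 515). On the log2(TPM + 1) scale the median of all genes was -0.32 here. Part of the separation in TPM is therefore shared with other genes, and the share of all genes separated in this way was not counted. Relative to control DMSO, 7 of the 8 members fell, beside 16.3% of all genes that fell and 17.4% that rose. Their median log2 fold change was -1.23 and that of all genes 3e-04, which moved to -0.25 with total count scaling. The control DMSO libraries are labelled 72 h and the sgEPCR ones 24 h, so genotype and time in vehicle cannot be told apart here.

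The largest of these differences was that of HLA-DMB, 5.58-fold lower (log2 -2.48, SE 0.17, adjusted p = 2.6e-06, and without the 2 libraries of high mitochondrial share log2 -2.40, SE 0.17). CIITA was 2.86-fold lower (log2 -1.51, SE 0.17, adjusted p = 7.1e-05, and without them -1.37, SE 0.06). HLA-DMA differed by log2 -1.36 (SE 0.13, adjusted p = 2.8e-05, and without them -1.39), HLA-DPB1 by -1.09 (SE 0.12, adjusted p = 5.7e-05, and without them -1.21), HLA-DRA by -0.92 (SE 0.12, adjusted p = 2e-04, and without them -1.11) and HLA-DPA1 by -0.92 (SE 0.10, adjusted p = 8e-05, and without them -0.86). HLA-DRB1 differed by -1.36 with a wide error (SE 0.40, adjusted p = 0.024, and without them -1.11, SE 0.08). That call was lost without any 1 of the 3 control DMSO libraries (for example log2 -1.29, adjusted p = 0.07, without DMSO replicate 2) or without sgEPCR DMSO replicate 1 (log2 -1.11, adjusted p = 0.065), and under total count scaling (adjusted p = 0.061), a replicate block (adjusted p = 0.1) and limma on log2(TPM + 1) (adjusted p = 0.12). Limma also lost the call of HLA-DPA1 (log2 -1.43, adjusted p = 0.075). CD74, at 301, 446 and 435 TPM, did not pass (log2 0.06, adjusted p = 0.73). Its sign turned with the scaling (-0.24 with total count scaling), and without the 2 libraries it was lower in sgEPCR cells (log2 -0.11, adjusted p = 0.018). By the limits of the study CIITA, HLA-DPB1, HLA-DMA and HLA-DMB passed, beside 2.84% of all genes. HLA-DMB held as few as 12.1 counts in a library, and its posterior SD reached 7.35% of its count. Over the 11 other alternatives its log2 difference ranged from -2.71 to -1.51.

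In UM171 for 24 h, 6 of these 7 genes, HLA-DRB1 excepted, were again lower in sgEPCR cells. CIITA was at 5.28, 2.62 and 6.19 TPM, HLA-DRA at 118, 70.0 and 121, HLA-DPA1 at 59.2, 21.3 and 58.1, HLA-DPB1 at 23.7, 7.91 and 24.4, HLA-DMA at 12.2, 5.05 and 11.8, and HLA-DMB at 2.06, 1.18 and 1.75. CIITA overlapped with control cells in UM171 in replicate 3, and the other 5 genes lay below control cells. On the log2(TPM + 1) scale the median of all genes was -0.21 in this comparison. In this comparison 6 of the 8 members fell, beside 22.2% of all genes that fell and 20.8% that rose. HLA-DMB, at log2 -1.39 (SE 0.15, adjusted p = 4.7e-05, and -1.39 also without the 2 libraries), was the 1 member past the limits of the study, which 4.46% of all genes passed. HLA-DPA1 differed by -0.80 (SE 0.10, adjusted p = 0.00013, and without them -0.69), HLA-DPB1 by -0.66 (SE 0.12, adjusted p = 0.001, and without them -0.57), HLA-DMA by -0.55 (SE 0.12, adjusted p = 0.0046, and without them -0.44). By limma on log2(TPM + 1) these 3 calls were lost (adjusted p = 0.13, 0.14 and 0.14), as were those of CIITA (0.3) and HLA-DRA (0.11), and total count scaling lost those of HLA-DMA (adjusted p = 0.065) and CIITA (0.18). The calls of CIITA (log2 -0.51, adjusted p = 0.029, and without them -0.36) and HLA-DRA (log2 -0.39, adjusted p = 0.023, and without them -0.44) were each lost in 4 of 12 fits with 1 library left out, for example without UM171 24 h replicate 2 (-0.49, adjusted p = 0.086, and -0.37, adjusted p = 0.068). A replicate block lost both calls as well. Of 11 other alternatives, 7 kept the call of CIITA and 8 that of HLA-DRA. HLA-DRB1 was at 18.7, 2.85 and 19.01 TPM, with replicate 2 far below the others, and did not pass (log2 -0.54, SE 0.38, adjusted p = 0.28). Without the 2 libraries its log2 fold change was -0.16 (adjusted p = 0.048) and that of CD74 -0.10 (adjusted p = 0.03).

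Within sgEPCR cells, UM171 raised 5 of the 8 members and lowered 2, beside 27% and 25.1% of all genes. In UM171 replicate 2 the levels of HLA-DRB1, HLA-DPA1, HLA-DPB1 and HLA-DMA lay within the range of sgEPCR DMSO, whereas replicates 1 and 3 lay above it, and HLA-DMB was above it in the 3 replicates. HLA-DRB1 rose 2.87-fold (log2 1.52, SE 0.40, adjusted p = 0.0087, and without the 2 libraries 1.65, SE 0.09), HLA-DMA 2.00-fold (log2 1.00, SE 0.13, adjusted p = 8.2e-05, and without them 1.14) and HLA-DMB 1.95-fold (log2 0.96, SE 0.17, adjusted p = 7e-04, and without them 0.86). HLA-DPA1 rose by 0.72 (SE 0.10, adjusted p = 0.00018, and without them 0.76) and HLA-DPB1 by 0.57 (SE 0.12, adjusted p = 0.0019, and without them 0.76). The call of HLA-DRB1 was lost with a replicate block (log2 1.41, adjusted p = 0.064), and on the log2(TPM + 1) scale limma lost those of HLA-DRB1 (1.41, adjusted p = 0.13), HLA-DPA1 (0.97, adjusted p = 0.17) and HLA-DPB1 (0.79, adjusted p = 0.21). CIITA fell (log2 -0.58, SE 0.17, adjusted p = 0.013, and without them -0.58, SE 0.07). Its call was lost without sgEPCR DMSO replicate 2 (-0.49, adjusted p = 0.058) or replicate 3 (-0.51, adjusted p = 0.051). It was also lost under total count scaling (-0.42, adjusted p = 0.33), with a replicate block and by limma (-0.41, adjusted p = 0.46). CD74 fell by 0.32 on the log2 scale (SE 0.11, adjusted p = 0.031, and without them by 0.18), and the call was lost without sgEPCR UM171 replicate 1 or 3 (each -0.31, adjusted p = 0.074 and 0.073), with upper quartile (-0.21, adjusted p = 0.14) or total count scaling (-0.11, adjusted p = 0.5), with at least 10 counts per library (-0.26, adjusted p = 0.066), with a replicate block (-0.31, adjusted p = 0.098) and by limma on log2(TPM + 1) (-0.04, adjusted p = 0.94). HLA-DRA did not pass (log2 -0.09, SE 0.12, adjusted p = 0.54), with a sign that turned to 0.02 without the 2 libraries. HLA-DMA passed the limits of the study, as did 10.3% of all genes.

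The difference between the responses of sgEPCR and control cells was tested as an interaction. The difference passed (adjusted p under 0.05) as positive for 5 members (fall smaller or rise larger in sgEPCR cells) and as negative for none. Of all genes 21.9% passed above and 23.1% below. For CIITA the response was -0.58 in sgEPCR cells and -1.58 in control cells, a difference of 1.00 (SE 0.24, adjusted p = 0.0054, and without the 2 libraries 1.01, SE 0.09). For HLA-DMB it was 0.96 against -0.13, a difference of 1.09 (SE 0.22, adjusted p = 0.0024, and without them 1.01). For HLA-DMA it was 1.00 against 0.19, a difference of 0.81 (SE 0.18, adjusted p = 0.0038, and without them 0.96). HLA-DRA differed by 0.54 (SE 0.17, adjusted p = 0.025, and without them 0.66), a call lost in 5 of 12 fits with 1 library left out, for example without DMSO replicate 1 (0.50, adjusted p = 0.061). HLA-DPB1 differed by 0.44 (SE 0.16, adjusted p = 0.049, and without them 0.64), a call lost in 10 of 12 such fits, for example without DMSO replicate 1 (0.42, adjusted p = 0.11). The difference did not pass for CD74 (-0.14, SE 0.16, adjusted p = 0.49), HLA-DRB1 (0.82, SE 0.55, adjusted p = 0.25) or HLA-DPA1 (0.12, SE 0.15, adjusted p = 0.54), and without the 2 libraries HLA-DRB1 (0.95, SE 0.11) and HLA-DPA1 (0.17, SE 0.06) passed. Under total count scaling the difference of CIITA was 1.14 and did not pass (adjusted p = 0.076), and on the log2(TPM + 1) scale no member passed by limma, with 2 at an unadjusted p under 0.05. No member reached the limits of the study for the difference, which 7.77% of all genes did. These comparisons share libraries, so their values are not independent of each other. Markers of other cells moved as well: in sgEPCR cells the summed T cell markers were at 0 to 0.67 TPM in DMSO and 6.53 to 17.3 in UM171, the dendritic markers at 0.04 to 0.32 and 1.16 to 3.12, the B cell markers at 7.97 to 21.7 and 6.26 to 14.6, and the myeloid markers at 433 to 1005 and 635 to 1350. Their part in these differences was not tested.

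**Figure D4:**
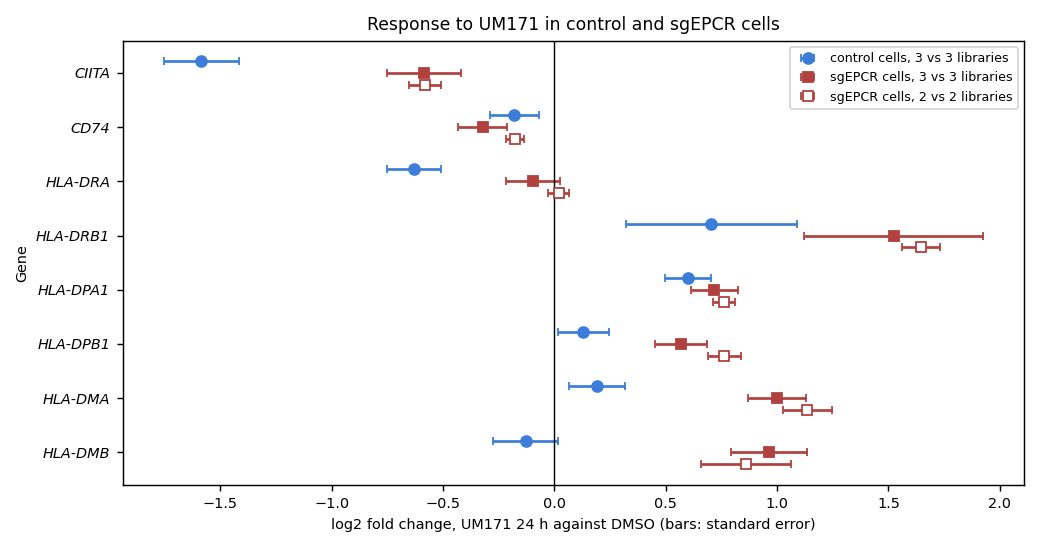
Response of each member to UM171 for 24 h, as log2 fold change against DMSO with its standard error, in control cells (blue circles), in sgEPCR cells (red squares) and in sgEPCR cells without the 2 libraries of high mitochondrial share (open squares). The red squares lie to the right of the blue circles for 7 of the 8 genes, and CIITA is at -1.58 in control cells and at -0.58 in sgEPCR cells.

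The order of the 7 groups differed between members. CIITA was highest in control DMSO (21.1 TPM ± 2.73, SD, n = 3 here and below), followed by 6 h (19.7 ± 2.11), which overlapped with it, then 72 h (13.7 ± 0.99), 48 h (7.90 ± 0.72), 24 h (7.04 ± 1.11), sgEPCR DMSO (6.66 ± 2.77) and sgEPCR UM171 (4.70 ± 1.86), each of the last 4 overlapping with the next. HLA-DRB1, HLA-DPA1, HLA-DPB1 and HLA-DMA were each highest at 72 h of UM171 (22.5 ± 2.16, 99.2 ± 1.89, 45.0 ± 3.99 and 21.8 ± 0.79 TPM) and lowest in sgEPCR DMSO (3.85 ± 2.38, 23.7 ± 12.4, 9.91 ± 4.15 and 4.04 ± 1.51). On this per-length scale the values of the 2 chains of HLA-DR were unequal, with 237 ± 2.44 TPM of HLA-DRA and 12.2 ± 1.197 TPM of HLA-DRB1 in DMSO. Reads from HLA-DRB1 alleles that differ from the reference may be lost, and HLA-DRB3 and HLA-DRB4 were not analysed. These values therefore do not measure the balance of the chains. Over the 7 group means, the genes whose pattern was nearest that of CIITA (root mean square difference of centred log2 CPM) were RAP1GAP2 (0.18), ZSCAN2-AS1 (0.18), GNG7 (0.18), ENSG00000273174 (0.18) and PMF1-BGLAP (0.19). Of the members, HLA-DRA came nearest to CIITA (0.43, rank 408 of 16785 genes), and HLA-DRB1 was farthest (0.92, rank 11833). Among the 5 genes nearest to CD74 were EIF3E (0.04), VKORC1 (0.05) and PTPN2 (0.06).

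Other class II chains were measured at low levels. HLA-DOB, the beta chain of the HLA-DM inhibitor HLA-DO, fell from 0.64, 0.75 and 0.93 TPM in DMSO to 0.31, 0.10 and 0.10 at 48 h (adjusted p = 4.5e-06). The 48 h libraries held 5.66, 2.30 and 2.63 counts of HLA-DOB, 2 of them under the 3 counts taken as the smallest signal, so no fold is given. Its partner HLA-DOA was at 0.21 to 0.62 TPM in DMSO, and HLA-DQA2 and HLA-DQB2 stayed at or below 0.22 and 0.29 TPM. HLA-DRB3 and HLA-DRB4 were not analysed here. Of 7 genes in this list 3 were tested (HLA-DRB5, HLA-DOA and HLA-DOB), of which 2 rose and 1 fell at 24, 48 and 72 h, times at which 34.9 to 38.8% of all genes rose and 34.8 to 36.8% fell.

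Of the 7 promoter-bound factors that recruit CIITA (RFX5, RFXAP, RFXANK, NFYA, NFYB, NFYC and CREB1), 1 rose and 2 fell at 24 h, none rose and 1 fell at 48 h (34.9% and 34.8% of all genes at 24 h and 37.1% and 35% at 48 h), and none passed the limits of the study in any of the comparisons. RFX5, the DNA-binding subunit of RFX, was at 90.8, 90.7 and 89.8 TPM in DMSO and at 93.8, 94.3 and 88.5 at 24 h. In sgEPCR cells under UM171 it was at 58.1, 21.1 and 55.6 TPM. RFX5 did not pass at 24 h (log2 0.02) and was lower in sgEPCR than in control cells in UM171 (log2 -0.84, and -0.73 without the 2 libraries of high mitochondrial share).

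Upstream of CIITA, 12 genes of interferon signalling and of the CIITA promoters were followed, of which 4 rose and 6 fell at 24 h and 5 rose and 6 fell at 48 h, beside 34.9% and 34.8% of all genes at 24 h and 37.1% and 35% at 48 h. PRDM1, a repressor known to act on CIITA promoters, was at 0.86, 0.82 and 0.66 TPM in DMSO, 1.65, 1.95 and 2.55 at 6 h, 1.94, 1.77 and 2.32 at 24 h, and 1.00, 0.61 and 0.92 at 72 h. It was above DMSO at 6 and 24 h and overlapped with it at 72 h (log2 1.53 at 24 h, SE 0.11, adjusted p = 2.3e-09). JAK2, a kinase of the interferon gamma receptor, was at 18.3, 19.2 and 20.5 TPM in DMSO and 7.53, 8.26 and 6.43 at 48 h (log2 -1.39, SE 0.05, adjusted p = 4.4e-13). IRF2, an interferon regulatory factor, rose to 27.1, 27.1 and 27.2 TPM at 72 h from 11.6, 10.7 and 11.2 (log2 1.30, SE 0.07, adjusted p = 2e-11). IRF8, a myeloid interferon regulatory factor, fell in sgEPCR cells from 76.7, 91.5 and 97.5 TPM in DMSO to 38.0, 24.5 and 40.4 in UM171 (log2 -1.48, SE 0.07, adjusted p = 9e-08, and -1.44 without the 2 libraries).

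Of 12 listed genes of antigen processing and class II turnover 10 were tested, of which 5 rose and 3 fell at 6 h, 5 and 1 at 24 h, 6 and 1 at 48 h, and 7 and 2 at 72 h. At these times 31.8, 34.9, 37.1 and 38.8% of all genes rose and 30.3, 34.8, 35 and 36.8% fell, and between 24 and 48 h 3 genes of the list rose and 3 fell. CTSS, the protease known for cleaving the invariant chain, was at 46.5, 51.8 and 54.3 TPM in DMSO and 145, 146 and 144 at 24 h (log2 1.48, SE 0.06, adjusted p = 1.8e-12). CTSL, a related endosomal protease, rose from 4.87, 5.54 and 5.50 TPM to 32.5, 32.1 and 36.4 at 72 h (log2 2.58, SE 0.06, adjusted p = 4.1e-16). CTSB, another lysosomal protease, rose in sgEPCR cells from 59.9, 169 and 156 TPM in DMSO to 448, 176 and 455 in UM171 (log2 1.25, SE 0.15, adjusted p = 4e-05, and 1.25 also without the 2 libraries). MARCHF1, a ubiquitin ligase that removes class II from the surface, was at 0.68, 0.77 and 0.51 TPM in control DMSO and 0.03, 0.13 and 0.04 in sgEPCR DMSO. It was called lower in sgEPCR cells (adjusted p = 1.6e-05, and 8.4e-07 without the 2 libraries). Its lowest count in a library was 2, under the 3 taken as the smallest signal, so no fold is given. LGMN reached at most 0.49 TPM and IFI30 at most 1.09 TPM, and the counts assigned to both were too low to be tested. For IFI30 the posterior SD reached 7.52 counts and up to 764% of its count. Its reads may therefore be shared with another gene, and its level is uncertain.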

How the data were processed

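Poly(A) stranded libraries from OCI-AML5 cells were compared. Per the labels and the submitters' processing notes, which state no roles, CASAVA 1.8.2, Trimmomatic 0.35, STAR 2.5.1b, RSEM 1.2.28 and GRCh38 were used. The authors deposited RSEM expected counts, which are not normalized, TPM, and a posterior SD of the count, another score of how far reads are shared between genes. Reads from HLA alleles that differ from the reference may be lost, which was not tested.

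Expected counts were rounded and tested with edgeR 4.0.16 in R 4.3.3 (filterByExpr, TMM, two-sided quasi-likelihood test, Benjamini-Hochberg adjustment over all genes), 15 libraries for the time course and 12 for sgEPCR. SE is the absolute log2 fold change over the square root of F. Replicate numbers did not pair the libraries of the time course (r -0.079 to 0.075). On simulated data, 200 of 200 genes changed 2-fold were recovered at 72 h (7 false calls among 16103 genes), and 200 of 200 changed 4-fold for the interaction (13 among 15524). The simulation used a single fixed spread per fit, changed only genes of high count and held no library of high mitochondrial share. The interaction differences of the members were at most 1.09 on the log2 scale. The recovery therefore does not measure how well such differences are found.

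Members and lists were chosen with earlier results of these data known. All members were named, and from each other list up to 4 genes of largest change past the limits of the study, beside genes given as examples after their values were seen (RFX5, HLA-DOA, HLA-DQA2, HLA-DQB2, LGMN, IFI30). The log2 fold changes of the members were computed again with limma 3.58.1 (TPM plus a pseudocount of 1, log2), DESeq2 1.42.0, other scalings, filters and thresholds, and other sets of libraries. The same was done for each other gene named by largest change, in the comparison that chose it. Counts of the other lists, marker sums and likeness were not computed again in this way. The 250 upstream bases came from RefSeq. Figures used Python 3.11.15 and matplotlib 3.10.9. Some genes among those most like CD74 are not reported here.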

Additional observations from a re-analysis of the deposited data

Results flagged for a closer look

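For 5 members the response to UM171 for 24 h differed between sgEPCR and control cells by the interaction test (edgeR, adjusted p under 0.05). The difference in log2 response was 1.00 for CIITA (adjusted p = 0.0054), 0.81 for HLA-DMA (adjusted p = 0.0038), 0.54 for HLA-DRA (adjusted p = 0.025), 0.44 for HLA-DPB1 (adjusted p = 0.049) and 1.09 for HLA-DMB (adjusted p = 0.0024). Among all genes 21.9% were called in this direction. The levels of sgEPCR cells in DMSO were lower than those of control cells for these 5 genes, and the vehicle time differs between them by label (24 against 72 h), which cannot be told apart from the genotype.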

How the results depend on the processing

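The falls of CIITA and HLA-DRA at 24, 48 and 72 h, the rises of HLA-DPA1 at the 4 times, of HLA-DMA and HLA-DPB1 at 72 h and of HLA-DMB at 6 h, and the lower CIITA, HLA-DRA, HLA-DPB1, HLA-DMA and HLA-DMB of sgEPCR cells in DMSO passed in each alternative with a test at adjusted p under 0.05 and with each library left out. Of the log2 fold changes of members that passed, 846 of the fits with 1 library left out kept the call and 69 lost it, and under other settings 605 kept it, 78 lost it and 2 changed sign. Where the text does not give the reason, the cause was not tested.

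Replicate numbers do not mark shared batches in the labels. Libraries of the same number did not deviate together in the time course (r -0.079 to 0.075). In sgEPCR cells r was -0.563, -0.561 and 0.413 for replicates 1, 2 and 3. Between DMSO replicate 1 and UM171 replicate 2, the libraries of high mitochondrial share, it was 0.655. The block by number thus joins sgEPCR libraries that deviate in opposite directions, so calls lost with it in sgEPCR comparisons cannot be read as weak for that reason. With a replicate block the members called went from 7 to 4 for UM171 in sgEPCR cells and from 5 to 3 for the difference between responses, against 7 to 6 for sgEPCR against control cells in DMSO and 6 to 4 in UM171, and the 7 time-course counts were 6, 7, 6, 6, 5, 3 and 8 with and without the block.

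The limits of the study left 1 member at 6 h, 1 at 24 h, 2 at 48 h, 0 at 72 h, 2 from 6 to 24 h, 0 from 24 to 48 h and 0 from 48 to 72 h, 1 for UM171 in sgEPCR cells, 4 for sgEPCR against control cells in DMSO, 1 in UM171 and 0 for the difference. One fit of all 21 libraries called 3 members at 6 h, 3 at 24 h, 1 from 24 to 48 h and 3 from 48 to 72 h. Limma on log2(TPM + 1) called 1 from 24 to 48 h, 2 for UM171 in sgEPCR cells, 1 for sgEPCR against control cells in UM171 and 0 for the difference. No filter gave 1 from 24 to 48 h, and total count scaling 3 for the difference. With 1 library left out the count was 4 to 7 at 24 h (4 without DMSO replicate 1 or UM171 24 h replicate 2) and 3 to 6 for the difference (3 without DMSO replicate 1 or 3, UM171 24 h replicate 1, or sgEPCR DMSO replicate 2 or 3).

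Signs turned for small changes. CD74 at 6 h was 0.13 by limma, 0.065 with upper quartile and 0.15 with total count scaling and 0.019 with at least 10 counts per library, and HLA-DRA at 6 h 0.0135 by limma and 0.033 with total count scaling. HLA-DMB by limma was 0.084 at 24 h and 0.29 at 48 h. From 6 to 24 h without a filter HLA-DPB1 was 9e-04 and HLA-DMA 0.037. For HLA-DRA in sgEPCR cells UM171 gave 0.19 by limma, 0.0157 with upper quartile and 0.11 with total count scaling, and 0.0196 without the 2 libraries of high mitochondrial share. For CD74, sgEPCR against control cells in DMSO gave -0.41, -0.0104, -0.24 and -0.11 in the same order, and its difference between responses 0.13 by limma, 0.0397 with total count scaling and 0.014 without the 2 libraries. With 1 library left out the log2 range crossed 0 for HLA-DPB1 at 48 h (-0.055 to 0.0038), HLA-DMB at 48 h (-0.13 to 0.0089), CD74 at 72 h (-0.0299 to 0.084), HLA-DMA from 6 to 24 h (-0.057 to 0.074), CD74 from 24 to 48 h (-0.20 to 0.0156), HLA-DRA with UM171 in sgEPCR cells (-0.19 to 0.072), CD74 in sgEPCR against control cells in DMSO (-0.10 to 0.13) and its difference between responses (-0.24 to 0.0136).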

Other observations

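Genes of the myeloid and other marker lists that stood out are given here as values. ITGAM, an integrin of mature myeloid cells, rose from 14.2, 12.01 and 13.4 TPM in DMSO to 96.0, 100.3 and 98.5 at 72 h (edgeR, log2 3.02, SE 0.05, adjusted p = 4e-17), while CD34, a progenitor marker, fell (log2 -2.29, SE 0.11, adjusted p = 3.1e-12). CD79A, a part of the B cell receptor, was at 27.7, 27.3 and 30.6 TPM in control cells with UM171 for 24 h and at 13.5, 5.87 and 12.2 TPM in sgEPCR cells, with a difference in log2 response of -2.43 (SE 0.15, adjusted p = 8.8e-07, and -2.45 without the 2 libraries of high mitochondrial share). MPO, the granule enzyme myeloperoxidase, fell with UM171 in sgEPCR cells from 3.69, 9.08 and 8.98 to 0.99, 0.48 and 0.74 TPM, and its response differed from that of control cells by -4.38 (SE 0.16, adjusted p = 5.9e-08, and without them -4.45). CSF2RA, the receptor chain for GM-CSF, differed in response by 1.78 (SE 0.15, adjusted p = 7.1e-06, and without them 1.81). CCR7, a chemokine receptor of dendritic and T cells, was at 0.02, 0.06 and 0.09 TPM in sgEPCR DMSO and 2.59, 0.64 and 1.91 in sgEPCR UM171. CD79B, the partner of CD79A, rose from 0.44, 0 and 0.07 TPM in DMSO to 1.79, 2.37 and 2.78 at 72 h (edgeR, adjusted p = 3.7e-08). DMSO replicate 2 held 0 counts of CD79B, so no fold is given. PAX5, a B cell factor, was listed at 0 in DMSO and at 0.16, 0.34 and 0.12 TPM at 72 h. FCER1A, a chain of the IgE receptor, rose from 0.08, 0.07 and 0.06 TPM in DMSO to 1.78, 2.34 and 1.99 at 48 h (adjusted p = 2.8e-09). Its DMSO levels lay near the limit of detection, so no fold is given for FCER1A either. CD3D, a chain of the T cell receptor complex, rose at 48 h by log2 5.37 (SE 0.28, adjusted p = 1.6e-11). The 5 T cell markers together held 0.14 to 0.80 TPM in DMSO, so the size of the CD3D rise is uncertain.

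Without the filter on low counts, HLA-DQB1 passed at 72 h (log2 3.34, adjusted p = 0.013) and HLA-DQA1 with UM171 in sgEPCR cells (log2 3.11, adjusted p = 0.031), on at most 7 and 7.32 counts per library, and the other 20 tests of these 2 genes did not pass.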
